A study of Mus musculus with 8 samples.

Results

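Small topologically associating domains (TADs) that were called in mouse embryonic stem (ES) cells and had no counterpart in newborn lens are described here. A TAD is a stretch of chromosome whose DNA contacts itself more than its surroundings in Hi-C, a genome-wide assay of DNA contacts. The members were selected on the deposited TAD lists. They are the ES cell TADs on chromosomes 1 to 19 that were shorter than 200 kb and for which neither lens list held a TAD with both ends within 25 kb. The rule found 1476 such TADs, which were 62.5% (Wilson 95% interval 60.5 to 64.4%) of the 2361 small ES cell TADs on these chromosomes, out of 3604 ES cell TADs in all. They are called unmatched small TADs below, and the other 885 small ES cell TADs are called matched. Because the TAD lists chose the members, every comparison of TAD positions is a description and carries no test. Loops were called from the same contact maps and are likewise described only. CTCF peaks and gene positions were not part of the rule. The split into matched and unmatched was nonetheless made by TAD calls in lens, where this CTCF was measured.

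The study performed Hi-C on 2 samples each of ES cells, lens fiber cells and lens epithelium, and CTCF chromatin immunoprecipitation with sequencing (ChIP-seq) on 1 sample of each lens cell type, 8 samples in all. Lenses came from newborn CD-1 mice at postnatal day 0.5 and were microdissected into both cell types, with 30 lenses pooled for a Hi-C sample and 200 for a ChIP-seq sample. The ES cells were of the v6.5 line, a male line of mixed 129 and B6 background grown without feeders on gelatin with 24 ng/mL LIF. The labels give no engineered allele for any sample, and the Hi-C cells were fixed with 2.0% formaldehyde. The ES cells and lens cells thus differ in strain, in culture and in tissue as well as in cell type, and these cannot be told apart. The labels list 1 CTCF sample per lens cell type, whereas the methods of the study speak of replicates, and each deposited peak list is taken here as 1 sample. The authors merged the replicates before calling, so that each cell type has 1 TAD list and 1 loop list. There was no replicate error, and intervals cover counting error over TADs only. The depth of the maps is not in the lists and was not used here. The study reports similar total contacts for ES cells and both lens cell types. It also reports a far smaller proportion of contacts between chromosomes in ES cells. The part of depth in the calls was not tested. Positions follow mm10, the build in the submitters' processing notes, and genes follow the RefSeq table of GRCm38.p6.

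As background, most TAD borders of mammalian cells form where cohesin, a ring complex that extrudes DNA into loops, stops at bound CTCF, a zinc finger protein. A domain anchored in this way shows a focal contact between its ends in the corner of the domain, called a corner loop. Domains can also form without such a loop, for instance where active genes or Polycomb-covered gene clusters contact themselves. ES cells are pluripotent, while lens epithelium is the dividing cell layer of the lens and fiber cells are its elongated, crystallin-rich descendants.

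DNA at the borders is shown where a RefSeq promoter (250 bases before to 50 after the gene's start, GRCm38.p6) lay within 10 kb of a border of an unmatched small TAD, held a match to the CTCF core consensus on either strand, and carried a CTCF peak of both lens cell types. Of 2195 promoters at these borders 11 held the consensus (0.501%), compared with 180 of 31396 promoters on all these chromosomes (0.573%). A peak of both lists lay on 4 of the 11. The stretches below are upstream of the start site of the gene, in the direction of its transcription, and capitals mark the consensus match.
Nifk, chr1:118321692-118321811, plus strand: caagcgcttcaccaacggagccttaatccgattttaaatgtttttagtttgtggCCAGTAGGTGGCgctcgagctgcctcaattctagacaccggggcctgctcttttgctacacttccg
Trpv2, chr11:62575407-62575526, plus strand: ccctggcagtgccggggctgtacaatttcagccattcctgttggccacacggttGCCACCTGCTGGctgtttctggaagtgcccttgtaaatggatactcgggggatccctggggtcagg
Wdr41, chr13:94976257-94976343, plus strand: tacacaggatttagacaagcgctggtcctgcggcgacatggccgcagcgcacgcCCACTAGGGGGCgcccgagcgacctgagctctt
Adprhl1, chr8:13254283-13254402, minus strand: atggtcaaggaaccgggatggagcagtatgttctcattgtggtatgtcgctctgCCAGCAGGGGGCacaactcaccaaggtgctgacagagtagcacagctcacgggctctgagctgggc
The fold enrichment of the fiber peak was 10.6 at Nifk, 10.2 at Trpv2, 15.6 at Wdr41 and 8.05 at Adprhl1. That of the epithelium peak was 5.69, 5.65, 5.90 and 6.88 in the same order. The start sites lay 1.84 kb (Nifk), 5.63 kb (Trpv2), 6.34 kb (Wdr41) and 5.84 kb (Adprhl1) from the border. A match to the consensus is a description of the letters and no measure of binding in ES cells, whose CTCF was not measured in the samples used here.

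The unmatched small TADs had a median size of 115 kb (quartiles 90 and 155 kb, range 60 to 195 kb), and the matched ones a median of 110 kb (quartiles 95 and 130 kb). The share without a counterpart depended on size. It was 76.4% (70.7 to 81.3%) of the ES cell TADs of 60 to 80 kb and fell to 48.8% (44.3 to 53.2%) at 100 to 120 kb. At 180 to 200 kb it was 92.2% (87.1 to 95.4%). The lens lists hold few TADs of the larger sizes. Between 140 and 195 kb there were 701 TADs in the ES cell list but 9 in the epithelium list and 199 in the fiber list. Fewer lens TADs of this size were thus there to match, although a counterpart may differ by up to 25 kb at each end. The gap ran past the size limit of the members, with 675 ES cell, 1 epithelium and 39 fiber TADs of 165 to 300 kb. In all, 66.0% of the ES cell TADs on chromosomes 1 to 19 were below 200 kb, compared with 41.2% of the epithelium TADs and 58.2% of the fiber TADs. Whether the gap comes from the cells or from the settings of the caller was not tested, nor was its part in the number of unmatched TADs.

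**Figure D1:**
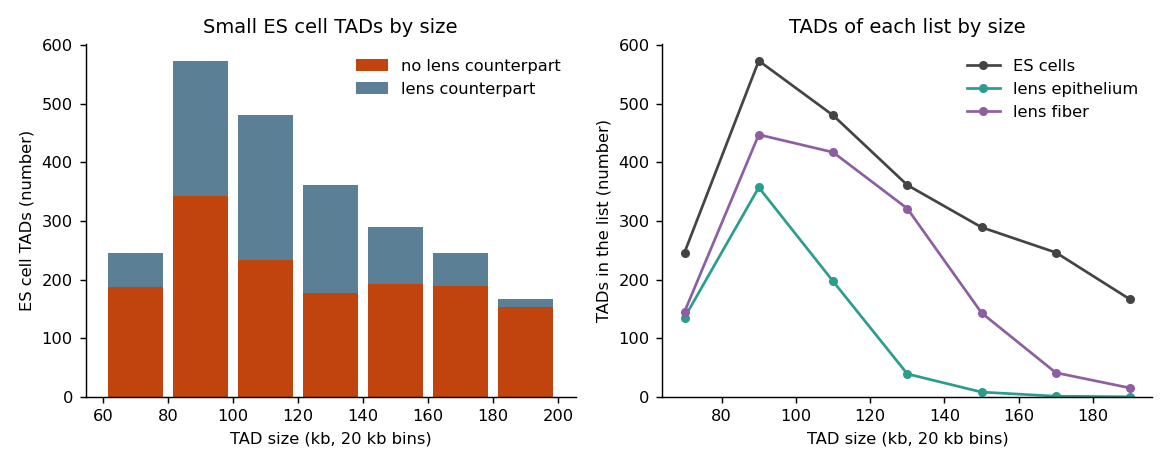
Left, number of small ES cell TADs by size in 20 kb bins, split into those without (red) and with (blue) a lens counterpart. Right, number of TADs of each size in the ES cell, lens epithelium and lens fiber lists. The epithelium list falls to 8 TADs at 140 to 160 kb and 0 at 180 to 200 kb, where the ES cell list still holds 289 and 166.

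At the limit of the rule, 63 unmatched TADs had their nearest lens TAD at exactly 30 kb and 86 matched ones at exactly 25 kb. The median distance of an unmatched TAD to the nearest lens TAD, taken at the farther of both ends, was 212.5 kb, and for 221 of them (15.0%) it was above 500 kb. By size, 32 unmatched TADs were 195 kb long, and of 38 ES cell TADs of 200 kb, just outside the rule, 33 had no counterpart. Unmatched TADs occurred on every chromosome from 1 to 19. Their share ranged from 52.9% (45.1 to 60.5%) of the small ES cell TADs on chromosome 7 to 75.9% (65.5 to 84.0%) on chromosome 13, the extremes of the 19, with intervals that do not overlap.

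The unmatched small TADs lay in several settings in lens. A larger lens TAD enclosed 366 of them (24.8%, 22.7 to 27.1%), of which 186 lay inside a larger TAD in both lens lists, 96 only in that of the epithelium and 84 only in that of the fiber cells. The enclosing lens TADs had a median size of 422.5 kb. Another 314 (21.3%) overlapped a lens TAD but lay inside none, and 796 (53.9%, 51.4 to 56.5%) overlapped no lens TAD at all. The most frequent setting was thus DNA that neither lens list assigned to a TAD. Among the matched TADs 8.25% lay inside a larger lens TAD.

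At 1 of their ends, 688 unmatched TADs (46.6%) had a lens TAD end within 25 kb. Neither end had one in 675 (45.7%). In 113 (7.66%) both ends lay near lens TAD ends, but of different TADs. A lens TAD ended more than 25 kb inside the ES cell TAD in 269 (18.2%). Seen from the lens, 234 of 1052 epithelium TADs of at least 200 kb (22.2%) and 213 of 1099 such fiber TADs (19.4%) held at least 1 unmatched small TAD, and the most held by a lens TAD was 4. Within the ES cell list, 128 unmatched TADs (8.67%) lay inside a larger TAD, and 30 lay inside a larger unmatched one. Those inside a larger lens TAD but no larger ES cell TAD were 22.4% of the unmatched and 7.57% of the matched TADs. Of the ES cell TADs of at least 200 kb they were 16.5%.

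A corner loop was counted where a listed loop had its anchor midpoints within 25 kb of both ends of the TAD. Where several loops met this, the one with most observed contacts was taken. In ES cells, 616 unmatched TADs had one (41.7%, 39.2 to 44.3%), compared with 624 matched TADs (70.5%). The difference was -28.8 points (Newcombe 95% interval -32.6 to -24.8), and the unmatched share was lower on 19 of 19 chromosomes. With loops required within 10 kb, the difference was -17.4 points. In lens epithelium, 346 unmatched TADs (23.4%) had a loop at the same corner, compared with 68.4% of the matched ones. In lens fiber cells the number was 320 (21.7%), compared with 67.1%. The name "found only in ES cells" therefore holds for the TAD lists but not for every contact, as 421 unmatched TADs (28.5%, 26.3 to 30.9%) had a corner loop in at least 1 lens list.

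Of the unmatched TADs, 303 (20.5%) had a corner loop in ES cells only, 313 (21.2%) in ES cells and lens, 108 (7.32%) in lens but not in ES cells, and 752 (50.9%) in no list. A corner loop in ES cells only was found at 7.12% of the matched TADs, a difference of 13.4 points (10.7 to 16.0). A loop in all 3 lists was found at 212 unmatched TADs (14.4%) and at 52.0% of the matched ones. Over its local expectation (the donut background of the loop caller), the ES corner loop of an unmatched TAD had a median enrichment of 2.83-fold (quartiles 2.37 and 3.63) where lens had no loop. Where lens had one, the median was 3.33-fold (quartiles 2.61 and 4.35), so both classes overlapped widely.

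CTCF of the lens cells marked the borders of the unmatched TADs, although less often than those of the matched ones. A fiber CTCF peak lay within 10 kb of 49.4% of the 2952 border positions (47.6 to 51.2%), and of 16.5% of the centres of the same TADs. The border exceeded the centre by 33.0 points (30.3 to 35.5), on 19 of 19 chromosomes. The interval treats borders and centres as independent, although they belong to the same TADs. An epithelium peak lay at 33.3% (31.6 to 35.0%) of the borders and 10.7% of the centres, a difference of 22.6 points (20.2 to 24.9). At the borders of the matched TADs the shares were 70.3% for fiber and 49.9% for epithelium peaks. The difference of the unmatched from the matched TADs was -20.9 points (-23.7 to -18.1) for fiber peaks, in that direction on 19 of 19 chromosomes. For epithelium peaks it was -16.6 points (-19.5 to -13.8), in that direction on 18 of 19. At the centres the difference was 1.32 points for fiber peaks (-1.77 to 4.29) and 1.67 points for epithelium peaks (-0.88 to 4.07), so that it was not resolved there. Nothing particular to the unmatched TADs is read from this, since values near theirs were found at larger TADs. ES cell TADs of at least 200 kb had fiber peaks at 48.8% and epithelium peaks at 35.7% of their borders, and 485 of 1214 had an ES corner loop. The epithelium list held 16433 peaks and the fiber list 23868, which bears on every share compared between the lens lists.

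**Figure D2:**
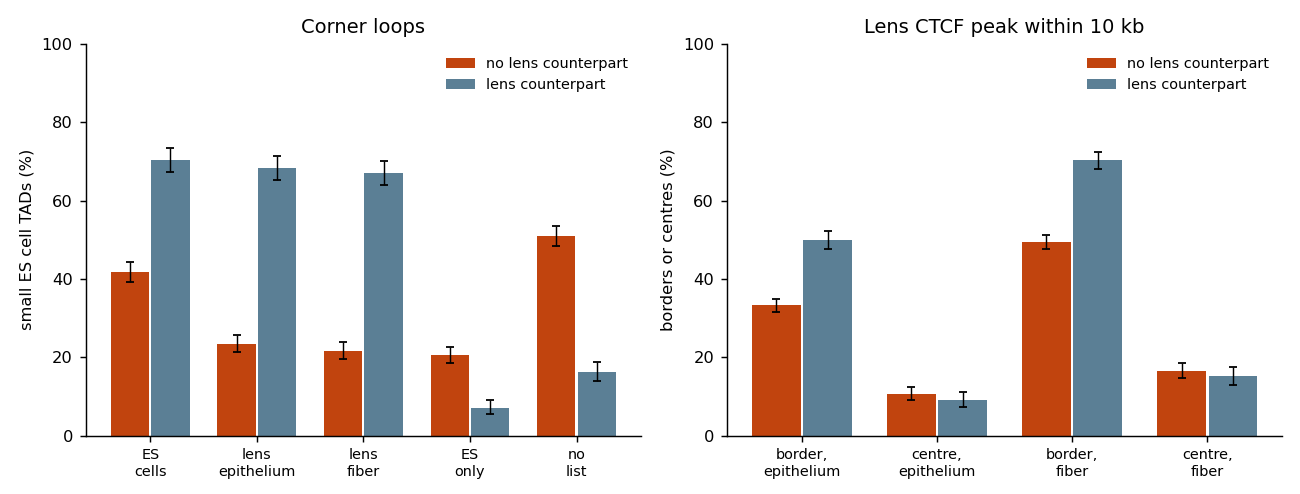
Left, percent of unmatched (red, 1476) and matched (blue, 885) small ES cell TADs with a corner loop in each list, in the ES cell list only, or in none. Right, percent of their borders and centres with a lens CTCF peak within 10 kb. Error bars are Wilson 95% intervals. The unmatched TADs are lower for every cell type's loops and at the borders, while the centres overlap.

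The lower CTCF share was found at each size. Among TADs of 60 to 100 kb, fiber peaks were at 45.8% of the borders of 531 unmatched TADs and at 72.6% of those of 288 matched ones. Among those of 100 to 140 kb the shares were 47.8% and 67.6%. Among those of 140 to 200 kb they were 54.3% and 73.7%. The differences were -26.8 points (-31.4 to -22.0), -19.7 points (-24.3 to -15.1) and -19.3 points (-24.7 to -13.6), so the difference was present within each range of sizes. The peaks themselves were similar in strength. The median fold enrichment at borders with a fiber peak was 7.23 in unmatched and 7.79 in matched TADs, with quartiles of 5.76 to 9.09 and 6.16 to 9.54.

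**Figure D3:**
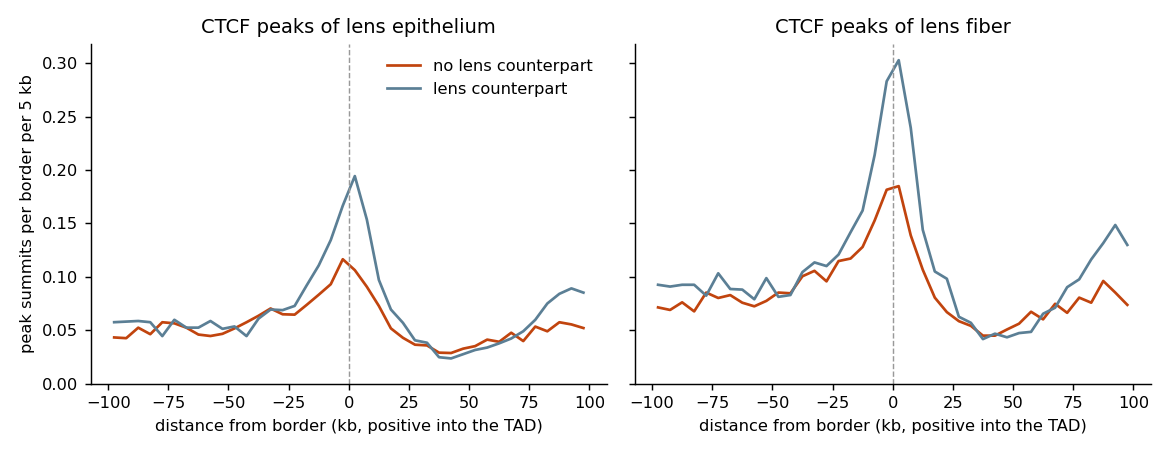
Lens CTCF peak summits per border in 5 kb bins, by distance from the border of unmatched (red) and matched (blue) small ES cell TADs, with the inside of the TAD to the right. Fiber peaks reach 0.185 summits per border in the first bin inside unmatched TADs and 0.303 in matched ones. The rise toward 100 kb inside comes from the opposite border of TADs of this size.

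The unmatched TADs were not uniform in CTCF. Fiber peaks lay at 64.5% (60.7 to 68.2%) of the borders of those looped in ES cells and lens and at 51.5% (47.5 to 55.4%) of those looped in ES cells only. At those with no corner loop in any list the share was 41.4% (39.0 to 43.9%). These 3 intervals do not overlap. The share was 55.6% (48.9 to 62.0%) at TADs looped in lens but not in ES cells. Neither border had a lens CTCF peak of either list in 354 unmatched TADs (24.0%), and in 31.9% of those without any corner loop. Both borders had a fiber peak in 26.2% of the unmatched and 50.1% of the matched TADs. Within the class looped in ES cells and lens, fiber peaks were still at 64.5% of the borders of unmatched TADs and at 75.2% (72.6 to 77.7%) of those of matched ones.

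Genes were dense in the unmatched TADs. Midpoints of protein-coding genes numbered 17.1 per Mb in them and 17.1 per Mb in matched TADs, compared with 5.67 per Mb in the 1214 ES cell TADs of at least 200 kb. The end of a protein-coding gene lay within 10 kb of 61.4% (59.7 to 63.2%) of their borders and 34.8% of their centres. For matched TADs the border share was 64.5%, so that the difference was -3.01 points (-5.83 to -0.16), in that direction on 11 of 19 chromosomes. Unmatched TADs inside a larger lens TAD had a gene end at 47.7% (44.1 to 51.3%) of their borders, and those that overlapped no lens TAD at 67.3% (65.0 to 69.6%). The same classes had fiber CTCF peaks at 45.8% (42.2 to 49.4%) and 48.7% (46.2 to 51.1%) of their borders, so that they differed in genes more than in CTCF. A further 143 unmatched TADs (9.69%) lay wholly within 1 protein-coding gene, compared with 5.99% of the matched ones, a difference of 3.70 points (1.45 to 5.83).

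Some part of an unmatched TAD lay over 3584 of 20661 protein-coding genes (17.3%), over 6362 of 47038 genes of every type (13.5%) and over 240 of 1136 miRNA genes (21.1%). These are the backgrounds for the gene lists. The lists are short, and no list was tested against its background.

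The 4 Hox clusters stood out by count. Hox genes encode the transcription factors that give position along the body axis, and in ES cells they are known to be silent and covered by Polycomb. Of 39 Hox genes, 33 lay over an unmatched small TAD (84.6%, 70.3 to 92.8%), and these were only 4 TADs, 1 for each cluster. The genes of a cluster are neighbours in the same TAD, so the 33 are not independent.

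The Hoxa TAD (chr6:52150001-52245000, 95 kb) held the cluster up to Hoxa11. In lens epithelium a TAD of 345 kb ended inside this cluster, at position 52220000 between Hoxa7 and Hoxa9. In lens fiber cells one of 335 kb ended at 52210000, between Hoxa6 and Hoxa7. The ES cell TAD had a corner loop with 65 observed contacts where 17.5 were expected (3.71-fold), and no lens list had one. Both lens lists instead held a loop from the middle of the TAD to its left, reaching -182.5 kb from the centre in epithelium (2.82-fold) and -192.5 kb in fiber cells (2.37-fold).

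The Hoxb TAD (chr11:96270001-96355000, 85 kb) held Hoxb2 to Hoxb9. It lay inside larger lens TADs of 480 kb in epithelium and 475 kb in fiber cells, which started at or within 5 kb of its left end. Its ES corner loop had 240 observed and 116 expected contacts (2.08-fold, on anchors of 10 kb). A second ES loop at this corner, on anchors of 5 kb, had 73 observed and 22.6 expected contacts (3.24-fold). No lens list had a loop at the corner. From inside the TAD, all 3 lists held a loop to the right. It reached 242.5 kb from the centre in ES cells (2.74-fold) and in fiber cells (2.33-fold), and 240 kb in epithelium (4.12-fold).

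The Hoxc TAD (chr15:102920001-103020000, 100 kb) ran from Hoxc13 to Hoxc4. It had loops within it but none at its corner in any list. In fiber cells, TADs of 170 kb ended at 102930000, next to Hoxc13, and began at 102995001, between Hoxc8 and Hoxc6. In epithelium a TAD of 145 kb began at 103015001, within Hoxc5. The lens TADs thus cut the cluster, with its middle left outside any.

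The Hoxd TAD (chr2:74680001-74760000, 80 kb) held Hoxd3 to Hoxd11. Its ES corner loop had 77 observed and 26.0 expected contacts (2.96-fold), and no lens list had one. In both lens lists a TAD of 900 kb began at 74690001, within Hoxd10, and ran out of the cluster on the side of Hoxd3. In the TAD calls, each cluster thus had a domain of its own in ES cells. Lens TADs had an end inside 3 of the 4 and enclosed the Hoxb TAD. At Hoxc and Hoxd these ends lay within 25 kb of an end of the ES cell TAD. Under the match tolerance such ends count as the same. Only at Hoxa, in fiber cells, did a lens TAD end more than 25 kb inside. TAD ends are placed in steps of 5 kb, so that a position between neighbouring Hox genes is as called and no finer.

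The Hox clusters also hold miRNAs, and the mature sequences of those in the 4 TADs that share a seed are printed to show that the same pair of seeds recurs across clusters. The sequences are those of RefSeq, 5′ to 3′, with the seed (bases 2 to 8) in capitals.
miR-10a-5p, in the Hoxb TAD: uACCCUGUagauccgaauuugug
miR-10b-5p, in the Hoxd TAD: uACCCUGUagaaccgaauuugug
miR-196a-5p, from Mir196a-2 in the Hoxc TAD: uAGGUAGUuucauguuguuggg
miR-196b-5p, in the Hoxa TAD: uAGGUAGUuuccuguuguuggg
Each of the 4 TADs holds 1 of these miRNAs. They were chosen for display after the positions were seen. In all, 202 of 919 miRNA hairpins lay over 129 of the unmatched TADs.

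Six2 to Six6, which encode homeobox factors of eye, muscle and kidney, each lay over an unmatched small TAD, in 4 TADs. Six3 and Six2 shared a TAD of 80 kb (chr17:85610001-85690000). Six3 is a regulator of forebrain and lens development. Its ES corner loop had 122 observed and 13.2 expected contacts (9.24-fold), the third highest among those without a lens loop. Anchors of every size were ranked together. In both lens lists a TAD of 415 kb began at 85660001, between Six3 and Six2, and the fiber list had another that ended at 85630000. Six4 lay in a TAD of 70 kb inside larger TADs of both lens lists, with a loop of 2.88-fold in ES cells only. Six6 lay in a TAD of 150 kb whose nearest lens TAD was 30 kb off, just past the tolerance, and its corner was looped in all 3 lists. Six5 had no corner loop in any list.

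Of 42 pluripotency genes on these chromosomes, 11 lay over an unmatched small TAD (26.2%, 15.3 to 41.1%), in 11 TADs, beside 17.3% of all protein-coding genes. The interval includes that background. The 11 were Prdm14, Tet1, Stat3, Socs3, Myc, Sall4, Sox2, L1td1, Lin28a, Nanog and Klf2. Of their TADs, 8 overlapped no lens TAD and 1 lay inside a larger one. An ES corner loop was present in 6 of the 11, of which 2 had no lens corner loop.

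Sox2, a core pluripotency factor that also acts in lens, lay at the left end of a TAD of 125 kb (chr3:34645001-34770000). In ES cells the corner loop had 50 observed and 8.04 expected contacts (6.22-fold). No listed lens loop had both anchors within 300 kb of the centre of the TAD, and loops that reach farther were not counted here. The study describes several nested loops upstream of Sox2 in both lens cell types and none there in ES cells. In the study, lens epithelium and fiber cells share a CTCF-bound loop anchor close to the start of the gene. The lens lists divided this DNA, with a TAD of 385 kb from 34715001 in epithelium and of 420 kb from 34680001 in fiber cells, both to the right of the gene. Lens CTCF peaks were at the left border only, with 2 in epithelium and 3 in fiber cells. Myc, a growth regulator, was the other gene with an ES corner loop (3.98-fold) and no lens corner loop, in a TAD of 130 kb.

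Nanog and Klf2, both pluripotency factors, showed another pattern. The Nanog TAD (chr6:122650001-122800000, 150 kb, with the glucose transporter gene Slc2a3) overlapped no lens TAD, but its corner was looped in every list. The enrichment was 2.36-fold in ES cells, 3.31-fold in lens epithelium and 2.51-fold in lens fiber cells. Anchors were of 10 kb in ES cells and epithelium and of 25 kb in fiber cells. The Klf2 TAD (chr8:72260001-72365000, 105 kb) was looped 6.06-fold in ES cells, 2.27-fold in epithelium and 3.23-fold in fiber cells. Its anchors were of 5 kb in ES cells and 10 kb in both lens lists, so these values are not on the same scale. The epithelium loop was shorter, from -27.5 to 42.5 kb of the centre, compared with -50 to 55 kb in ES cells. Prdm14, a germ cell and pluripotency regulator, was looped 5.02-fold in ES cells (anchors of 5 kb) and 2.82-fold in epithelium (anchors of 10 kb). Socs3, an inhibitor of LIF signalling, was looped 4.47-fold in ES cells and 5.06-fold in epithelium. Stat3, the factor that LIF activates, had a loop in fiber cells only (2.11-fold). Tet1, Sall4, L1td1 and Lin28a had no corner loop in any list.

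**Figure D4:**
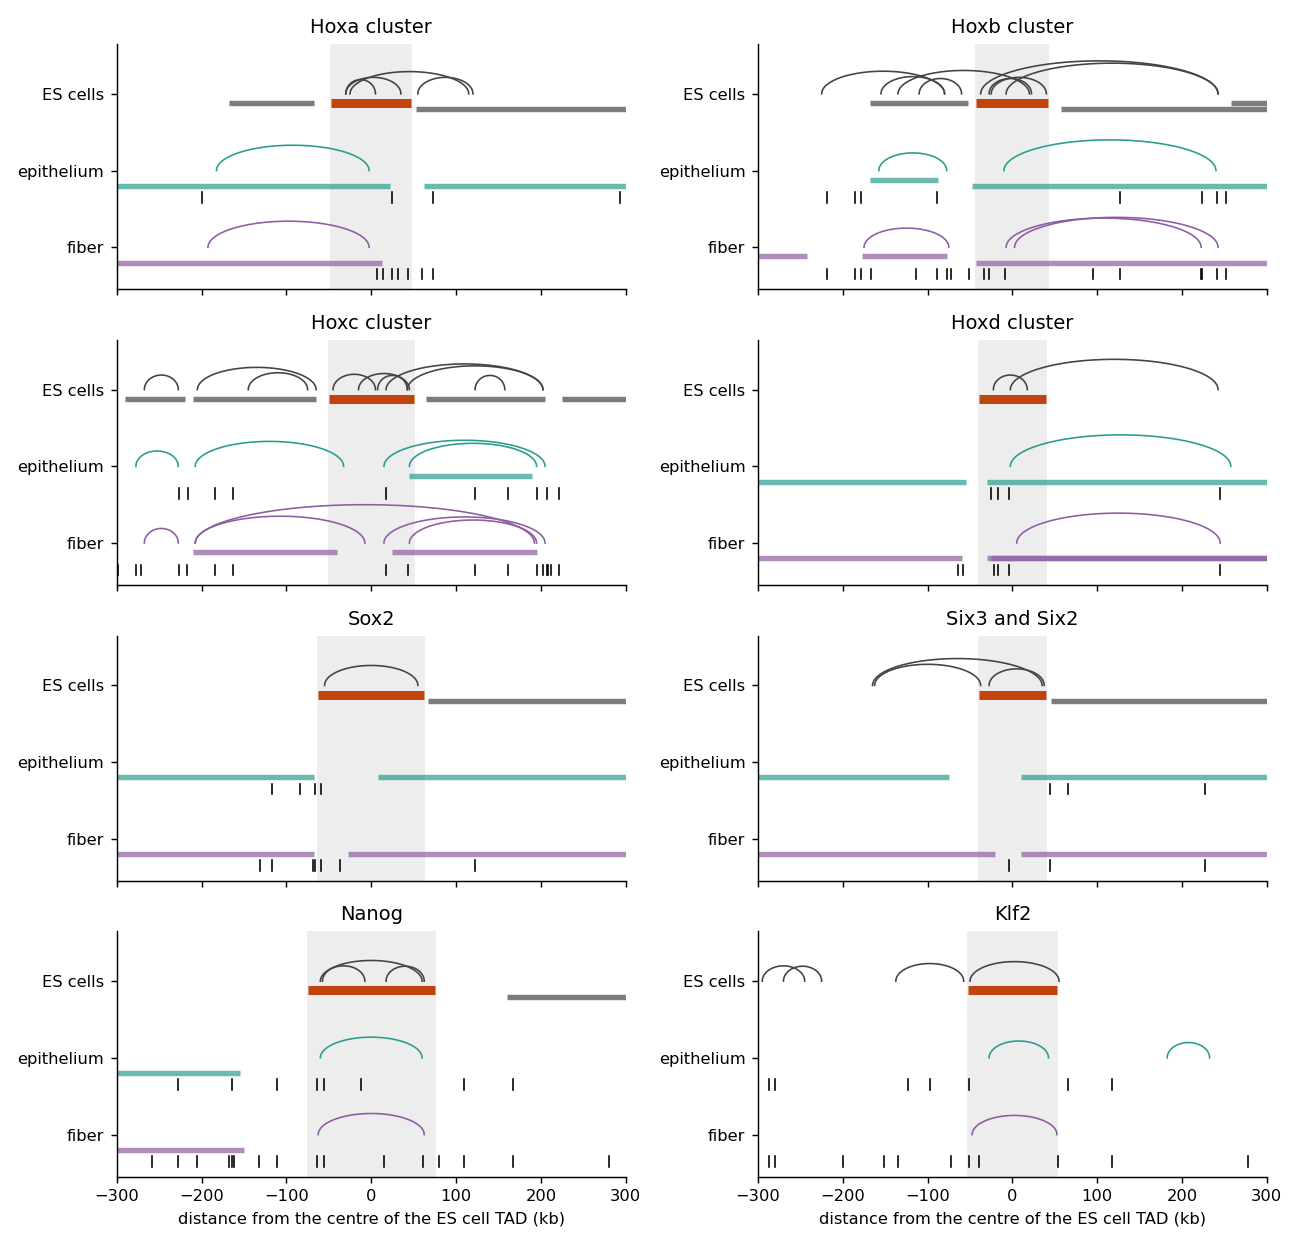
TADs (bars), loops (arcs) and lens CTCF summits (ticks) within 300 kb of the centre of 8 unmatched small TADs, by cell type, with the ES cell TAD in red and its extent shaded. Grey stands for ES cells, green for lens epithelium and violet for fiber cells. CTCF of ES cells, which the study took from earlier work, is not shown. Lens TADs have an end inside the shaded TADs of Hoxa, Hoxc, Hoxd, Sox2 and Six3. At Hoxc and Hoxd these ends lie within 25 kb of an end of the ES cell TAD. Lens TADs enclose or start with the TAD of Hoxb and are absent over Nanog and Klf2.

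Of 50 lens genes, 13 lay over an unmatched small TAD (26.0%, 15.9 to 39.6%), and here too the interval includes the background of 17.3%. Among them were Cryba2, Meis1, Hif1a, Rb1, Cryaa, Six3, Bfsp1, Birc7, Sox2, Cryba4, Crybb1 and Hsf4. They lay in 13 TADs, since Rb1 touched 2 and Cryba4 and Crybb1 shared 1. Of these TADs, 5 lay inside a larger lens TAD and 2 overlapped none. The crystallin genes, whose products fill the fiber cell, were 4 of these 13, but only Cryba4 and Crybb1 lay wholly within the TAD. Cryba2, which starts at 74889934, overlapped only the last bases of a TAD that ended at 74890000. Cryba4 and Crybb1 shared a TAD of 180 kb (chr5:112215001-112395000) with lens CTCF peaks at its left border only and no corner loop. Cryaa lay across the left end of a TAD of 175 kb and only partly within it. This TAD was looped in all 3 lists, 2.29-fold in ES cells, 3.73-fold in epithelium and 2.84-fold in fiber cells.

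Meis1, a homeobox factor upstream of lens genes, filled a TAD of 140 kb (chr11:18875001-19015000) with an ES corner loop of 155 observed and 12.8 expected contacts (12.1-fold). In epithelium the loop was 5.15-fold and in fiber cells 5.37-fold, all on anchors of 5 kb, so that the contact was enriched in every list while the TAD was called in ES cells only. Rb1, the retinoblastoma gene, lay over 2 unmatched TADs, both inside larger lens TADs. The TADs of Hif1a, Bfsp1, Birc7, Hsf4 and Cryba2 had no corner loop in any list.

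Among 13 genes of CTCF and cohesin, 4 lay over an unmatched TAD (30.8%, 12.7 to 57.6%), and the interval includes the background of 17.3%. Nipbl, the loader of cohesin, touched 2 of them, 1 with a corner loop in all 3 lists (4.08-fold in ES cells). Stag1, a cohesin subunit, lay at the edge of a TAD looped 3.34-fold in ES cells (anchors of 5 kb) and 2.04-fold in epithelium (anchors of 25 kb). The TADs of Pds5a and Zfp143 had no corner loop. Of 29 imprinted genes, 6 lay over an unmatched TAD (20.7%, 9.85 to 38.4%), in 5 TADs. This interval includes the background as well. Commd1, Gnas and Sgce had TADs inside larger lens TADs without corner loops, and Kcnq1 had an ES corner loop only (2.21-fold). Rian and Mirg shared a TAD of 160 kb that overlapped no lens TAD.

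In the other developmental families the shares lay on both sides of 17.3%. Genes over an unmatched TAD were 9 of 41 for Fox, 5 of 19 for Wnt, 4 of 14 for Nkx, 3 of 12 for Tbx, 2 of 9 for Pax, 2 of 18 for Sox, 2 of 6 for Dlx, 1 of 8 for Lhx, 1 of 6 for Irx and 0 of 5 for Gata. Together with Hox and Six2 to Six6, a grouping made after the values were seen, they gave 35 TADs. Of these, 25 had an ES corner loop, beside 41.7% of all unmatched TADs. In 14 the loop was in ES cells only, beside 20.5%, and 0 were looped in lens but not in ES cells, beside 7.32%. The genes of the grouping share TADs and were seen before it was made, so nothing is read from these counts.

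**Figure D5:**
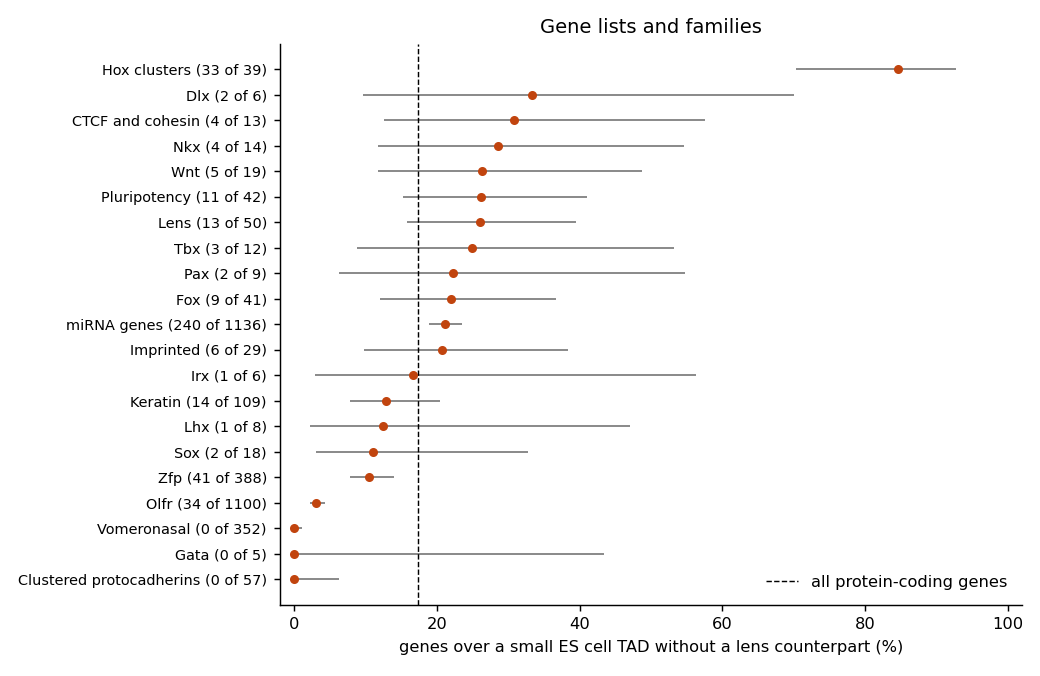
Percent of the genes of each list or family that lie over an unmatched small TAD, with Wilson 95% intervals and the counts beside each name. The dashed line marks all protein-coding genes at 17.3%. Of the lists plotted, Hox and miRNA genes lie above it with their whole interval, and Zfp, olfactory, vomeronasal and protocadherin genes below it, with genes of a cluster counted singly although they share TADs.

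The 10 unmatched TADs with the highest ES corner loop over expected and no lens corner loop had enrichments from 5.34-fold to 11.4-fold. They were ranked on this value, so it is a description. The ranking pooled loops on anchors of 5, 10 and 25 kb, whose enrichments are not directly comparable. The first (chr12:56535001-56680000, 145 kb) ran from Nkx2-1, a homeobox factor of lung, thyroid and forebrain, toward Pax9, with 90 observed and 7.87 expected contacts. The next (chr5:75070001-75150000, 80 kb) joined the surroundings of Gsx2, a forebrain homeobox gene, and Pdgfra, a growth factor receptor, with 109 observed and 11.1 expected contacts (9.83-fold). The Six3 and Six2 TAD and that of Sox2 followed. Foxd1, a forkhead factor of the kidney stroma, had a loop of 5.99-fold in a TAD of 160 kb.

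Further down were TADs at Psme4 (5.72-fold), between Slc23a2 and Tmem230 (5.64-fold), and between Cd69 and Clec12a (5.60-fold). The TAD of Olig2 and Olig1, factors of the oligodendrocyte lineage, was looped 5.45-fold. A TAD of 85 kb between Nkx2-4 and Nkx2-2 overlapped no protein-coding gene and was looped 5.34-fold. All 10 ES loops had anchors of 5 kb. None of the 10 TADs had an epithelium CTCF peak at both borders except that of Slc23a2 and Tmem230, and 3 had fiber peaks at both.

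At the other end were 38 unmatched TADs that were looped in all 3 lists and had peaks of both lens cell types at both borders. The 5 with most observed contacts in fiber cells are given here. Observed contacts are raw counts that grow with anchor size. The first of the 5 had fiber anchors of 25 kb and the others of 10 kb. They lay at Rora and Anxa2, at Slc47a2, at Lmcd1 and Ssu2, at Cacna2d2, and at Pctp and Tmem100. The TAD from Rora, a nuclear receptor, to Anxa2, an annexin, spanned 125 kb (chr9:69365001-69490000), with its nearest lens TAD at 50 kb. Its loop was enriched 3.73-fold in ES cells on anchors of 5 kb. On anchors of 25 kb it was enriched 2.54-fold in epithelium and 2.90-fold in fiber cells, so the scales differ. At Cacna2d2, a calcium channel subunit gene, the values were 4.52, 5.53 and 3.59-fold, on anchors of 5, 5 and 10 kb. The nearest lens TAD lay at 45 kb. For these TADs the corner contact and lens CTCF were both present in lens without a TAD of the same ends in its lists.

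Unmatched TADs were spread over many windows of 1 Mb. Of those that held any, 519 held 1, 253 held 2, 100 held 3, 34 held 4 and 3 held 5. The windows with 5 began at 117000001 on chromosome 5 (Taok3 to Nos1), at 76000001 on chromosome 15 and at 56000001 on chromosome 17. That on chromosome 15 held 36 protein-coding genes over its TADs, among them Scrib, Plec, Hsf1 and Foxh1. Of the 34 windows with 4, the 2 that come first in genome order were on chromosome 2, from 30000001 (Nup188, Lrrc8a) and from 31000001 (Ass1, Prdm12).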

How the data were processed

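Starting points were the lists that the authors deposited. Per the labels, reads were processed with BWA, Juicer and MACS2 on mm10, with no versions given in the sources used here. The authors merged both Hi-C replicates of a cell type and called TADs with Arrowhead and loops with HiCCUPS. The deposited loops carry observed contacts as a raw count, a donut expectation as a signal that HiCCUPS models from nearby pixels, and an FDR as a q-value. The deposited CTCF peaks carry a fold enrichment over background and a −log10 q. The deposited TAD lists give positions only.

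Unmatched and matched TADs, the place in lens TADs, corner loops, peaks by summit, and genes were computed in Python 3.11.15 with scipy 1.17.1, pandas 2.3.3 and numpy 2.4.6. Figures used matplotlib 3.10.9. The computations were tested on simulated lists. A TAD was inside a lens TAD that contained it wholly and was not within 25 kb of it at both ends. Enrichment of a loop is observed over expected contacts. Loops were listed on anchors of 5, 10 or 25 kb, and enrichments on anchors of different size are not directly comparable. Intervals are 95% Wilson or Newcombe intervals. They treat all borders and centres as independent, so the pairing of those of the same TAD is ignored. With 1 list per cell type there is no test between cell types, and the number of chromosomes with the same direction is given instead. The members, gene lists and tests were chosen with earlier results of these data known.

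Genes named are those of the pluripotency, lens, CTCF and cohesin, imprinted and family lists over an unmatched TAD or at its border, those at the borders of the 10 strongest ES loops without a lens loop and of 5 TADs looped in all 3 lists, and those of the 5 densest windows. Symbols that start with Hist gave 0 genes in the table. Some results that name withheld items are left out. The gene table has no strand or exons. Sequence was read from RefSeq promoter and miRNA tables only, as no genome was used. Alternatives changed the match tolerance, size limit, nesting, loop and CTCF windows, FDR, peak strength and gene type.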

Additional observations from a re-analysis of the deposited data

How the results depend on the processing

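No paired analysis was possible because the replicates of each cell type were merged into 1 list before deposit. For the same reason no replicate could be left out. Of 131 alternative values, 47 counts or shares moved beyond 1.5 times the main count or beyond the interval of the main share, and 84 values did not move or, for differences, kept their sign. All 47 alternatives of the differences between unmatched and matched TADs in corner loops and border CTCF kept their sign and an interval on the same side of 0. Each of them kept the split by TAD calls in lens. The kept sign thus describes the dependence on settings and is no independent support for the differences. Their size changed by over 1.5 times with loops within 10 kb, to -17.4 points in ES cells, -20.6 in epithelium and -19.1 in fiber cells, from -28.8, -44.9 and -45.4.

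The number of unmatched TADs moved from 1476 to 531 below 100 kb. Their share moved to 76.3% with a tolerance of 10 kb, 54.6% with 50 kb, 67.2% by 80% reciprocal overlap, 82.3% against the epithelium list alone, 64.7% against the fiber list alone, 64.8% below 100 kb and 57.1% below 150 kb. The share inside a larger lens TAD moved to 28.5% with 25 kb of slack and 22.4% at the 10 kb tolerance. Corner loop shares in ES cells, epithelium and fiber cells moved to 17.1%, 8.88% and 8.74% for loops within 10 kb and to 54.3%, 34.8% and 31.5% within 50 kb. They were 44.5%, 29.3% and 27.4% at the 10 kb match tolerance, 35.6%, 13.9% and 12.8% below 100 kb and 38.5%, 17.6% and 15.2% below 150 kb. By reciprocal overlap they were 25.8% in epithelium and 23.9% in fiber cells. Border shares with epithelium and fiber peaks moved to 20.0% and 32.0% within 5 kb, 53.9% and 72.3% within 25 kb, 35.4% and 51.7% at the 10 kb match tolerance, 31.2% and 45.8% below 100 kb and 30.8% and 47.0% below 150 kb. Gene ends lay at 41.5% of borders within 5 kb, 80.9% within 25 kb, 74.5% with all genes, 70.4% below 100 kb and 64.1% below 150 kb. Genes over an unmatched TAD were 13.5% of all genes, and of protein-coding genes 21.2% at the 10 kb tolerance, 15.0% at 50 kb, 5.68% below 100 kb and 11.6% below 150 kb. The cause of these moves was not tested beyond the wider or narrower windows themselves. Each peak list is 1 sample, the maps' depth was not used, and CTCF of ES cells was not analysed here.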

Other observations

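Most genes of large tandem families other than Hox lay outside the unmatched small TADs. Their shares stand beside the 17.3% of all protein-coding genes over one. Of 1100 olfactory receptor genes 34 lay over one (3.09%, 2.22 to 4.29%), in 12 TADs. Of 352 vomeronasal receptor genes 0 did, which allows up to 1.08% by the Wilson interval. Of 57 clustered protocadherin genes, which give neurons their surface identity, 0 lay over an unmatched TAD and 21 over a matched one. Keratin genes, of the intermediate filaments of epithelia, did so in 14 of 109 (12.8%, 7.81 to 20.4%), all in 2 TADs, and this interval includes the background. Zinc finger genes with Zfp symbols did so in 41 of 388 (10.6%, 7.89 to 14.0%), over 33 TADs. Genes of a family sit side by side, so the TADs and not the genes are the count to read.

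The miRNA genes over unmatched TADs included 2 well known clusters, which were picked after their positions were seen. The genes of miR-183, miR-96 and miR-182, which act together in sensory organs, lay in a TAD of 140 kb (chr6:30070001-30210000). Those of miR-141 and miR-200c, of the epithelial miR-200 family, lay in a TAD of 105 kb (chr6:124695001-124800000).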
